A study of Mus musculus with 18 samples.

Results

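The 9 genes described here encode proteins through which a tumor cell presents itself to immune cells and to its surroundings. Cd274, Cd276, Cd80 and Pvr encode ligands of receptors on T cells and NK cells. Cd47 and Cd24a encode ligands that hold back phagocytes, and Icam1, Vcam1 and Cd44 encode adhesion molecules. They were taken by symbol, with earlier results of these data known, and all 9 were found among the 24421 genes of the count table. Of these, 8 passed the filter on low counts and were tested, and Cd80 was left out of the tests because almost no reads were assigned to it.

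Total RNA was sequenced from 4T1 cells, a mouse mammary carcinoma line, and from 4T1R1 and 4T1R2, populations of 4T1 cells that survived repeated exposure to 17-DMAG, an inhibitor of the chaperone HSP90. Each of the 3 populations was left untreated or was given 1.5 µM 17-DMAG before RNA extraction, which gives 6 groups of 3 libraries and 18 libraries in all. The sample records give 48 h for this last exposure and the series text gives 2 h, so its length is uncertain. For the selection they give 1.5 µM for 48 h and 1 µg/ml for 24 h, respectively. 4T1R1 and 4T1R2 are pools of surviving cells from separate selections and not clones, and each is a single selected population, so the libraries of a group measure the spread within that population and not between selections. The cells were grown in culture, and no immune cells are named as being present.

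Each library held between 23354461 and 55094630 counts. In 17-DMAG-treated 4T1 cells, the difference between replicates 1 and 2 was below sampling noise. Their counts were averaged into 1 sample, so that n = 2 for this group and n = 3 for the other 5. The identifiers of the 4T1R1 libraries belong to another run of numbers than those of 4T1 and 4T1R2, so for 4T1R1 an effect of the population and one of the library set cannot be told apart. Among the markers of other cell types, the summed level of 10 immune cell markers ran from 145 to 208.7 normalized counts in untreated 4T1, from 237.7 to 238.8 in untreated 4T1R1 and from 221.6 to 263.5 in untreated 4T1R2. Most of it was Cd68, and Cd3e and Nkg7 never exceeded 3 counts. The 7 epithelial markers summed to between 75304 and 76267 normalized counts in untreated 4T1, 50470 and 52949 in untreated 4T1R1, and 58684 and 59861 in untreated 4T1R2, with Krt5 at 3 counts or fewer. The 7 fibroblast markers summed to between 688.2 and 770.7 in untreated 4T1, 841.9 and 895.3 in untreated 4T1R1, and 919.9 and 1043 in untreated 4T1R2, and to between 400.2 and 421.3 in treated 4T1. The 6 endothelial markers summed to between 4.32 and 23.4 over all libraries. The epithelial sum was thus lower, and the fibroblast and immune sums higher, in the untreated resistant populations than in 4T1, and their part in the members' differences was not tested. Single markers differed from the sums. Krt14 was higher in 4T1R1 and 4T1R2 by log2 fold changes of 0.59 (SE 0.14) and 1.36 (SE 0.14). Cdh1 was higher in 4T1R2 by 0.27 (SE 0.03). Of the 6 epithelial markers tested, 1 was higher and 4 lower in 4T1R1, and 2 were higher and 3 lower in 4T1R2. Of 3 immune cell markers tested, 1 was higher and 1 lower in 4T1R1, and 2 were higher and 0 lower in 4T1R2. Over all genes, 25.2% were higher and 27.5% lower in 4T1R1, and 25.6% and 26.9% in 4T1R2. Emcn and Lum, which mark endothelium and fibroblasts, were at 0. In these bulk samples fewer cells that carry a transcript cannot be told apart from less of it in each cell.

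PD-L1, the product of Cd274, engages PD-1 on T cells and dampens their activity, and its transcription is induced by interferon-γ and NF-κB signaling. CD47 binds SIRPα on macrophages and CD24 binds Siglec-10 (Siglec-G in mice), and both contacts restrain engulfment of the tumor cell. ICAM-1 and VCAM-1 are inducible immunoglobulin-family molecules that bind leukocyte integrins, while CD44 binds hyaluronan and osteopontin and is abundant on many carcinoma cells, including mammary lines. HSP90 holds many kinases in an active form, among them the kinases upstream of NF-κB, and its inhibitors release the heat shock factor HSF1.

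Promoter windows of RefSeq on GRCm38.p6, which run from 250 bases before to 50 bases after an annotated transcription start, were held for 6 of the 9 members. They are printed for Icam1, Cd47 and Cd44, the members that differed from 4T1 in the same direction in both resistant populations, at chr9:21015690-21015989 on the plus strand, chr16:49855404-49855703 on the plus strand and chr2:102901616-102901915 on the minus strand, respectively. Capitals mark matches to the relaxed NF-κB consensus, in which the first of the 3 leading G bases may be any base.
Icam1: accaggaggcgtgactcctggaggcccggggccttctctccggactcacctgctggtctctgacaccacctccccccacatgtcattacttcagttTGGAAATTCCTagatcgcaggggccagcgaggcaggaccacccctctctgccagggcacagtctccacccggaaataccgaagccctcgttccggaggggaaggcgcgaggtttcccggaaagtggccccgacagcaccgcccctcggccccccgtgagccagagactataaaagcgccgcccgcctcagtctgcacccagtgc
Cd47: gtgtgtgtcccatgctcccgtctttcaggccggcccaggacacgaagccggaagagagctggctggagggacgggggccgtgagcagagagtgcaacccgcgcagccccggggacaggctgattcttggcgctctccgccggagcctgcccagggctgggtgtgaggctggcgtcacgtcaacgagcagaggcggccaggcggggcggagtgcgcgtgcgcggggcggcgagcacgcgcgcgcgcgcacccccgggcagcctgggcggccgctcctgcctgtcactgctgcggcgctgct
Cd44: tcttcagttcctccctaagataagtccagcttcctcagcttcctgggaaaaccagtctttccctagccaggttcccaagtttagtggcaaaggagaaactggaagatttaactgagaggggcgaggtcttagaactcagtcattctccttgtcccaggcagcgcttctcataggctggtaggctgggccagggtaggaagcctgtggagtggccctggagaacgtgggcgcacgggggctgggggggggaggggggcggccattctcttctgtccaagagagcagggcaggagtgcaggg
The Icam1 window holds a pair of overlapping matches that share the 9 bases GGAAATTCC, from 153 to 145 bases before the start. No match was found in the windows of the other members. The relaxed consensus was present in 26.57% of all 32851 windows, and the strict one, found in no member's window, in 8.46%. Of the other motifs searched on both strands, the STAT element TTCNNNGAA (8.3% of windows) occurred in the Icam1 window, the IRF core AANNGAAA (23.92%) in the Cd274 and Cd80 windows, and the AP-1 site TGANTCA (7.81%) in the Cd80 window. The heat shock element core GAANNTTC (7.86%) occurred in none of them. These are matches of letters in 300 bases and show nothing about binding. The Icam1 window contained 19 CpG dinucleotides, against 35 in the printed one of Cd47 and 6 in that of Cd44. A second, overlapping Cd47 window (chr16:49855411-49855710), not printed, contained 36. Both Cd47 windows lie inside the annotated span of the gene (49800533 to 49915010), downstream of its first base.

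Per length of transcript, Cd44 and Cd24a were the most abundant members in every group. In untreated 4T1 the level of Cd44 was 113 ± 3.97 RPKM (SD, n = 3), which is reads per kilobase of exons at a fixed library size, that of Cd24a 90.7 ± 2.73, that of Cd276 23.3 ± 0.543 and that of Cd47 22.2 ± 0.914. Pvr stood at 11.2 ± 0.283, Vcam1 at 5.31 ± 0.126 and Cd274 at 0.697 ± 0.0328 on the same scale. The hyaluronan receptor and both phagocytosis-restraining ligands lay above PD-L1 on this scale in every library. In untreated 4T1R2 the leading pair changed places, with Cd24a at 105 ± 1.45 and Cd44 at 82.4 ± 1.22 RPKM.

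**Figure D1:**
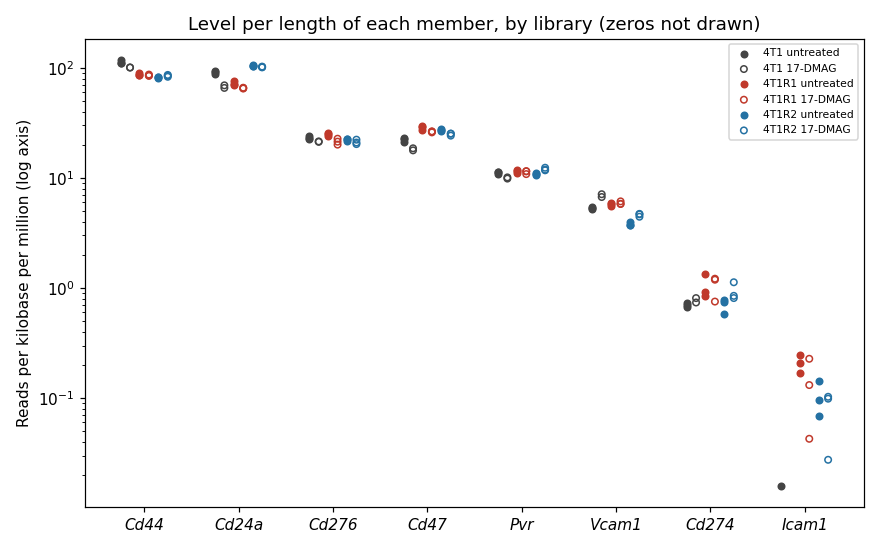
Level of each tested member in RPKM (reads per kilobase of exons, scaled to library size) on a log axis, by library, with filled points for untreated and open points for 17-DMAG-treated libraries of 4T1 (grey), 4T1R1 (red) and 4T1R2 (blue). Levels span from about 113 for Cd44 in untreated 4T1 down to 0.697 for Cd274, and Icam1 lies below the other tested members, with libraries at 0 not drawn.

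Relative to untreated 4T1, 4 of the 8 tested members were higher and 2 were lower in untreated 4T1R1 (adjusted P under 0.05, edgeR's quasi-likelihood test). Among all 13507 genes tested, 25.2% were higher and 27.5% lower. In untreated 4T1R2, 3 members were higher and 2 lower, where 25.6% of all genes were higher and 26.9% lower. Between the resistant populations, 1 member was higher and 4 were lower in 4T1R2 than in 4T1R1, against 19.7% and 19.0% of all genes. The median log2 fold change of the members was 0.11 in 4T1R1 and -0.022 in 4T1R2, beside 0.0075 and 0.0068 over all genes tested, so the members did not move together. Icam1 and Cd47 were higher and Cd44 was lower than in 4T1 in both resistant populations. Of these, Icam1 passed the filter on low counts only through the resistant populations, where it was high. The comparisons of 4T1R1 and of 4T1R2 share the untreated 4T1 libraries, so their values are given side by side.

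17-DMAG changed 6 of the 8 tested members in 4T1, 1 upward and 5 downward, where 18.4% of all genes rose and 18.0% fell. In 4T1R1 no member rose and 3 fell, against 13.9% and 14.4% of all genes. By the same test 0 members rose there at an unadjusted P under 0.05, and DESeq2 called 0. In 4T1R2, 2 members rose and 1 fell, against 6.18% and 4.35% of all genes. The response of 4T1R1 differed from that of 4T1 in 4 members, 3 upward and 1 downward, against 9.21% and 9.04% of all genes. The response of 4T1R2 differed from that of 4T1 in 4 members upward and 0 downward (0 at an unadjusted P under 0.05 and 0 by DESeq2), against 9.68% and 8.13% of all genes. With scaling by library totals alone, the calls over all genes became 1195 higher and 4318 lower in 4T1, 2357 and 1316 in 4T1R1, 367 and 1150 in 4T1R2, 3528 and 420 for the difference of 4T1R1 from 4T1, and 2089 and 631 for that of 4T1R2.

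**Figure D2:**
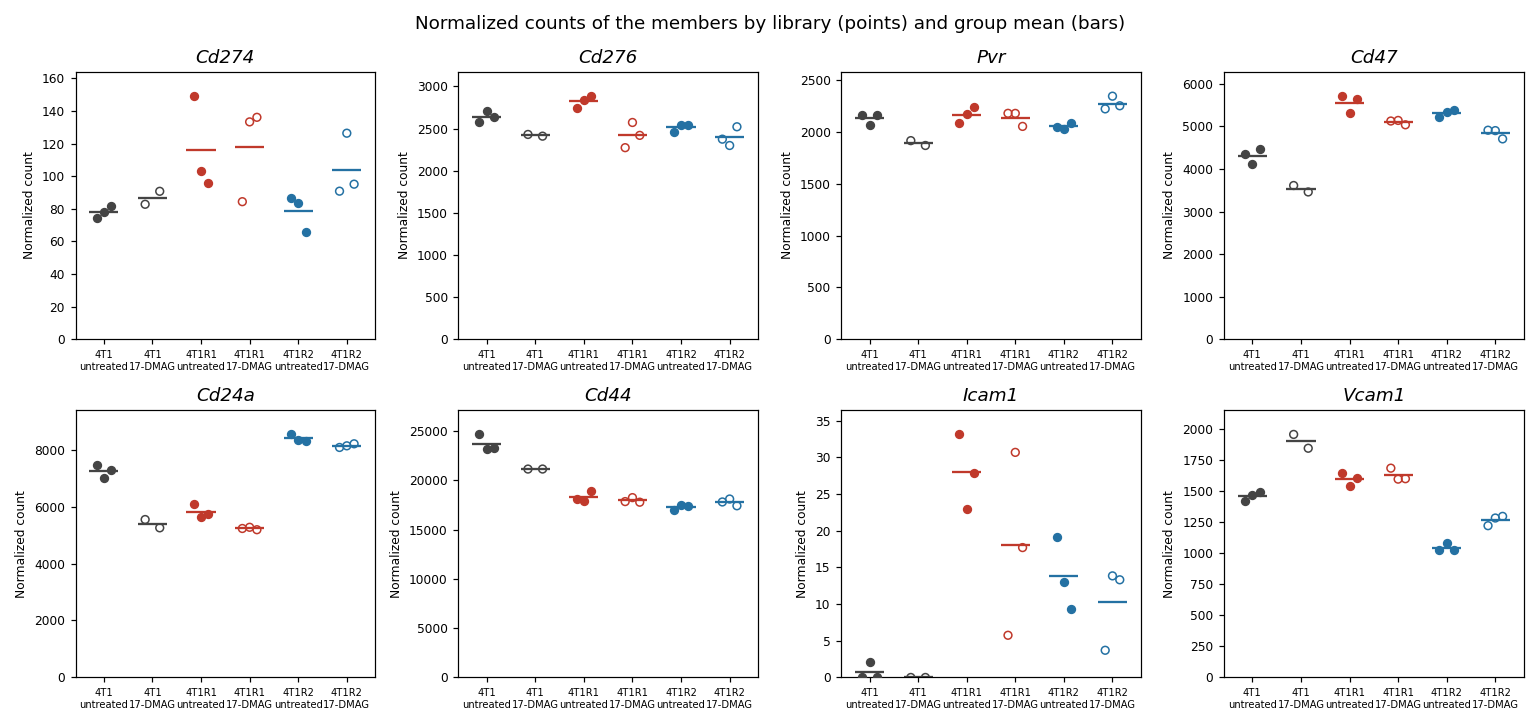
Normalized counts of the 8 tested members in each library, on axes that start at 0, with filled points for untreated and open points for 17-DMAG-treated libraries and a bar at the group mean. Cd44 is highest in the untreated 4T1 libraries, between 23139 and 24653, and Icam1 is at or near 0 in all 4T1 libraries.

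Cd274 (chromosome 19, 29367455 to 29388095 in GRCm38, plus strand), which encodes PD-L1, was transcribed at a low level in all groups. Normalized counts were 74.6, 78.0 and 81.9 in the untreated 4T1 libraries, 149, 103.3 and 95.7 in untreated 4T1R1, and 86.3, 83.5 and 65.5 in untreated 4T1R2. All 3 libraries of 4T1R1 lay above all libraries of 4T1, and those of 4T1R2 overlapped both sides of the 4T1 range. The log2 fold change in 4T1R1 was 0.57 (SE 0.19, adjusted P = 0.0125, edgeR), and between 4T1R2 and 4T1R1 it was -0.56 (SE 0.20, adjusted P = 0.0208). Without replicate 1 of untreated 4T1R1 these were 0.34 (adjusted P = 0.176) and -0.34 (adjusted P = 0.228), and without replicate 3 of untreated 4T1R2 the latter was -0.45 (adjusted P = 0.11), within ranges over all alternatives of 0.00369 to 0.176 and 0.00679 to 0.228. In 4T1R2 the change from 4T1 was 0.0077 with a 95% interval of -0.40 to 0.41.

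After 17-DMAG, Cd274 was at 82.8 and 90.7 normalized counts in 4T1, at 84.4, 133.3 and 136.1 in 4T1R1, and at 90.8, 126.4 and 95.1 in 4T1R2. No response passed the test. The log2 fold changes were 0.14 (95% interval -0.29 to 0.58) in 4T1, 0.016 (-0.34 to 0.38) in 4T1R1 and 0.41 (0.022 to 0.79, adjusted P = 0.203, edgeR) in 4T1R2.

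Cd276 (chromosome 9, 58524298 to 58555437, minus strand) encodes B7-H3, a B7-family protein found on many solid tumors. Its normalized counts were 2583, 2706 and 2634 in untreated 4T1, 2750, 2835 and 2884 in untreated 4T1R1, and 2458, 2539 and 2545 in untreated 4T1R2. The ranges did not overlap, yet the differences were small. The log2 fold change was 0.096 in 4T1R1 (SE 0.042, adjusted P = 0.0522, edgeR), which passed the threshold under 13 of the 25 alternatives (adjusted P from 0.0129 to 0.157), and -0.072 in 4T1R2 (SE 0.043, adjusted P = 0.163). 4T1R2 was lower than 4T1R1 by a log2 fold change of -0.17 (SE 0.043, adjusted P = 0.0015).

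17-DMAG lowered Cd276 in 4T1R1, where the treated libraries held 2273, 2572 and 2419 normalized counts, all below the untreated ones (log2 fold change -0.22, SE 0.042, adjusted P = 8.63e-05, edgeR). In 4T1 the treated libraries held 2430 and 2410 normalized counts (-0.13, SE 0.047, adjusted P = 0.0341). That call was lost without either treated library (adjusted P = 0.129 and 0.144) and without replicate 2 or 3 of untreated 4T1 (0.107 and 0.0626), within a range over all alternatives of 5.17e-05 to 0.144, and the value was -0.24 with library totals alone. In 4T1R2 the treated libraries held 2374, 2299 and 2521, which overlapped the untreated ones (-0.068, adjusted P = 0.36). The responses of the resistant populations did not differ detectably from that of 4T1, with 95% intervals of the difference from -0.22 to 0.028 in 4T1R1 and from -0.067 to 0.18 in 4T1R2.

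Cd80 (chromosome 16, 38455561 to 38496335, plus strand), a B7 ligand of CD28 and CTLA-4 that is typical of antigen-presenting cells, had 2 counts in replicate 1 of untreated 4T1R1 and 2 in replicate 1 of untreated 4T1R2, and 0 in every other library. A level of up to 3 counts in a library would not be told from 0, and this limit covers counting error only. It takes each count as a separate event, so it is too low where both reads of a pair were counted. No fold change is given for Cd80.

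Pvr (chromosome 7, 19903578 to 19921160, minus strand) encodes CD155, a ligand that activates NK cells through DNAM-1 and inhibits lymphocytes through TIGIT. No difference between the untreated populations and 4T1 passed the test. Untreated libraries held 2164, 2070 and 2162 normalized counts in 4T1, 2085, 2176 and 2243 in 4T1R1, and 2047, 2033 and 2091 in 4T1R2, with overlapping ranges. The log2 fold changes were 0.024 in 4T1R1 (95% interval -0.058 to 0.11) and -0.052 in 4T1R2 (-0.14 to 0.032).

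The response of Pvr to 17-DMAG ran in opposite directions in 4T1 and 4T1R2. In 4T1 the treated libraries fell to 1917 and 1870 normalized counts, below all untreated ones (log2 fold change -0.17, SE 0.047, adjusted P = 0.00355, edgeR). In 4T1R2 they rose to 2223, 2346 and 2253, above all untreated ones (0.14, SE 0.042, adjusted P = 0.0188). The difference between these responses was 0.32 (SE 0.063, adjusted P = 0.000242). In 4T1R1 the treated libraries held 2180, 2180 and 2054 and overlapped the untreated ones (-0.020, adjusted P = 0.786), and the difference from 4T1 was 0.15 (SE 0.063, adjusted P = 0.0944), or 0.30 and called with library totals alone (adjusted P = 0.000577, with 0.000577 to 0.269 over all alternatives). With those totals the fall in 4T1 was -0.29. The fall in 4T1 was at adjusted P = 0.05001 without replicate 3 of treated 4T1, and the rise in 4T1R2 was lost without replicate 2 of treated 4T1R2 (0.118) or replicate 1 or 2 of untreated 4T1R2 (0.0632 and 0.0733) and with scaling by library totals alone (0.152). Over all alternatives the adjusted P ran from 9.01e-06 to 0.05001 for the fall and from 0.014 to 0.152 for the rise, while the difference kept its call under all 25.

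Cd47 (chromosome 16, 49800533 to 49915010, plus strand) was higher in both resistant populations, and 17-DMAG lowered it in all 3. Untreated libraries held 4351, 4123 and 4473 normalized counts in 4T1, 5710, 5320 and 5654 in 4T1R1, and 5217, 5349 and 5379 in 4T1R2. Every library of the resistant populations lay above every library of 4T1. The log2 fold changes were 0.37 in 4T1R1 (SE 0.035, adjusted P = 7.18e-12, edgeR) and 0.30 in 4T1R2 (SE 0.035, adjusted P = 1.41e-09), and 4T1R2 differed from 4T1R1 by -0.066 (95% interval -0.13 to 0.0014), which was not called except without replicate 2 of untreated 4T1R1 (-0.097, adjusted P = 0.0275).

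After 17-DMAG, Cd47 was at 3611 and 3460 normalized counts in 4T1, 5127, 5140 and 5038 in 4T1R1, and 4910, 4901 and 4707 in 4T1R2. In each population all treated libraries lay below all untreated ones, and those of the resistant populations stayed above the untreated 4T1 libraries. Cd47 fell by 18.0% in 4T1 (log2 fold change -0.29, SE 0.040, adjusted P = 1.42e-07, edgeR), fell by 8.28% in 4T1R1 (-0.12, SE 0.034, adjusted P = 0.00509) and fell by 8.91% in 4T1R2 (-0.13, SE 0.035, adjusted P = 0.00736). The call in 4T1R1 was lost with scaling by library totals alone (-0.091, adjusted P = 0.0678, with 0.000801 to 0.0678 over all alternatives).

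The smaller fall of Cd47 in the resistant populations was a difference of 0.16 in 4T1R1 (SE 0.052, adjusted P = 0.025, edgeR) and of 0.15 in 4T1R2 (SE 0.053, adjusted P = 0.0381). With library totals alone the former was 0.31. Both calls depended on single libraries. For 4T1R1 it was lost without replicate 1 of treated 4T1R1 (adjusted P = 0.0503), replicate 2 of untreated 4T1R1 (0.0692), replicate 3 of treated 4T1 (0.167) or replicate 3 of untreated 4T1 (0.0928). For 4T1R2 it was lost without replicate 1 or 2 of treated 4T1R2 (0.0853 and 0.0777), replicate 1 or 2 of untreated 4T1R2 (0.0914 and 0.0535), replicate 3 of treated 4T1 (0.192), or replicate 1 or 3 of untreated 4T1 (0.0649 and 0.129). Over all alternatives the adjusted P ran from 5.17e-05 to 0.167 for 4T1R1 and from 0.00424 to 0.192 for 4T1R2.

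Cd24a (chromosome 10, 43578284 to 43584265, plus strand), which encodes the small glycoprotein CD24, separated the resistant populations from each other. Untreated libraries held 7441, 7012 and 7293 normalized counts in 4T1, 6080, 5637 and 5731 in 4T1R1, and 8531, 8352 and 8315 in 4T1R2. All libraries of 4T1R1 lay below and all of 4T1R2 above those of 4T1. The log2 fold changes were -0.32 (SE 0.032, adjusted P = 2.92e-11, edgeR) and 0.21 (SE 0.031, adjusted P = 2.65e-07), and that of 4T1R2 against 4T1R1 was 0.53 (SE 0.032, adjusted P = 3.12e-17).

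17-DMAG lowered Cd24a in 4T1 to 5543 and 5252 normalized counts, a fall of 25.5% (log2 fold change -0.42, SE 0.036, adjusted P = 5.74e-13, edgeR). In 4T1R1 it fell to 5229, 5271 and 5186, by 10.1% (-0.15, SE 0.032, adjusted P = 0.000292). In 4T1R2 the treated libraries held 8073, 8131 and 8202, below all untreated ones, but the change did not pass the test (-0.046, 95% interval -0.11 to 0.015, adjusted P = 0.399). Compared with this response in 4T1, the difference was 0.27 in 4T1R1 (SE 0.048, adjusted P = 4.79e-05) and 0.38 in 4T1R2 (SE 0.047, adjusted P = 5.16e-08). With library totals alone the former was 0.42. These calls held under all 25 alternatives. Treated 4T1 and treated 4T1R1 reached overlapping levels.

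Icam1 (chromosome 9, 21015985 to 21028817, plus strand) was near zero in 4T1 and detectable in both resistant populations. Raw counts in the untreated libraries were 0, 2 and 0 in 4T1, 34, 22 and 30 in 4T1R1, and 20, 10 and 8 in 4T1R2. All libraries of the resistant populations lay above all of 4T1 (adjusted P = 1.45e-06 and 0.000253, edgeR). Icam1 passed the filter on low counts only through libraries of the resistant populations, so these tests are not independent of the filter. Among the low counts even numbers prevailed, as when each read of a pair is counted. Counted as fragments, 43 in 4T1R1 against 1 in 4T1 gave a ratio of 41.1 (95% counting interval 6.99 to 1661), and 19 in 4T1R2 against 1 gave 20.9 (3.32 to 867.1). Even in 4T1R1 the level, 0.207 ± 0.0377 RPKM (SD, n = 3), was below that of Cd274, at 1.03 ± 0.258. The levels of 4T1R2 and 4T1R1 did not differ by the test (log2 fold change -0.98, SE 0.49, adjusted P = 0.113), but were called different when only the groups compared were fitted (adjusted P = 0.0476, with 0.0476 to 0.295 over all alternatives).

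After 17-DMAG, Icam1 was at 0 in all treated 4T1 libraries, and no fold change is given because 4T1 was at or under the limit of 3 counts in both conditions. Treated 4T1R1 libraries held 6, 29 and 16 counts and treated 4T1R2 libraries 4, 16 and 14. In normalized counts these ran from 5.75 to 30.7 in 4T1R1 and from 3.71 to 13.9 in 4T1R2, and all lay above 2.83, the level of 3 counts in treated 4T1. That level is too low a limit where both reads of a pair were counted, and the lowest libraries might then not exceed it. The ranges of treated and untreated libraries overlapped in both resistant populations, and the log2 fold changes were -0.65 (95% interval -1.57 to 0.27) in 4T1R1 and -0.45 (-1.53 to 0.64) in 4T1R2. The neighboring genes Icam4 and Icam5, named here for their position after their values were seen, lie just downstream on chromosome 9 (21029373 to 21030595 and 21032073 to 21039036). Icam5 was at 11.3 ± 4.92 normalized counts in untreated 4T1, 40.7 ± 8.29 in 4T1R1 and 38.6 ± 8.16 in 4T1R2 (SD, n = 3, adjusted P = 6.88e-05 and 0.000144). Icam4 was at 3.35 ± 2.16, 12.1 ± 9.45 and 22.6 ± 7.88, respectively (adjusted P = 0.0272 and 0.000398). Its level in untreated 4T1 was too low to pass the filter on low counts. Icam4 passed through libraries of other groups, so its tests are not independent of the filter.

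Vcam1 (chromosome 3, 116109949 to 116129688, minus strand), whose product binds the integrin VLA-4, separated the resistant populations. Untreated libraries held 1419, 1467 and 1486 normalized counts in 4T1, 1642, 1535 and 1605 in 4T1R1, and 1026, 1081 and 1022 in 4T1R2. The libraries of 4T1R2 lay below and those of 4T1R1 above all of 4T1. The log2 fold change was -0.48 in 4T1R2 (SE 0.051, adjusted P = 9.62e-11, edgeR) and -0.61 between 4T1R2 and 4T1R1 (SE 0.050, adjusted P = 3.97e-13). In 4T1R1 it was 0.13 (SE 0.048, adjusted P = 0.0221), a call lost without replicate 1 or 3 of untreated 4T1R1 (0.0961 and 0.0537) or replicate 1 of untreated 4T1 (0.0883), with 0.0106 to 0.0961 over all alternatives.

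Vcam1 was the only tested member that 17-DMAG raised in 4T1. Treated 4T1 libraries held 1953 and 1842 normalized counts, above all untreated ones (log2 fold change 0.38, SE 0.052, adjusted P = 1.22e-07, edgeR). In 4T1R2 the treated libraries, at 1220, 1281 and 1294, also lay above the untreated ones (0.28, SE 0.051, adjusted P = 0.000139). In 4T1R1 they held 1682, 1594 and 1597 and overlapped the untreated ones (0.027, 95% interval -0.066 to 0.12). The response of 4T1R1 differed from that of 4T1 by -0.35 (SE 0.071, adjusted P = 0.000268), or -0.21 with library totals alone, while that of 4T1R2 did not differ detectably (-0.10, 95% interval -0.25 to 0.041).

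Cd44 (chromosome 2, 102811141 to 102901665, minus strand) was lower in both resistant populations. Untreated libraries held 24653, 23139 and 23292 normalized counts in 4T1, 18152, 17893 and 18963 in 4T1R1, and 16994, 17461 and 17405 in 4T1R2. All libraries of the resistant populations lay below all of 4T1, treated 4T1 included. Cd44 fell by 22.6% in 4T1R1 (log2 fold change -0.37, SE 0.027, adjusted P = 3.88e-15, edgeR) and by 27.1% in 4T1R2 (-0.46, SE 0.027, adjusted P = 6.31e-18). The step from 4T1R1 to 4T1R2 was -0.085 (SE 0.027, adjusted P = 0.0109), and this call was lost without replicate 3 of untreated 4T1R1 (0.104) or replicate 1 of untreated 4T1R2 (0.0611), with 0.00291 to 0.104 over all alternatives. Gene counts do not separate the splice forms of CD44.

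17-DMAG lowered Cd44 in 4T1 by 10.8%, to 21139 and 21142 normalized counts (log2 fold change -0.16, SE 0.030, adjusted P = 2.35e-05, edgeR). In 4T1R1 the treated libraries held 17840, 18242 and 17777 (-0.031, 95% interval -0.084 to 0.023) and in 4T1R2 they held 17802, 18101 and 17414 (0.040, -0.013 to 0.093), overlapping the untreated ones in both. The response differed from that of 4T1 by 0.13 in 4T1R1 (SE 0.041, adjusted P = 0.0157) and by 0.20 in 4T1R2 (SE 0.041, adjusted P = 0.00021). The former was lost without either treated 4T1 library (adjusted P = 0.0708 and 0.0614) or replicate 1 of untreated 4T1 (0.0699), with 5.35e-06 to 0.0708 over all alternatives. With library totals alone it was 0.28, and the fall in 4T1 was -0.28.

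**Figure D3:**
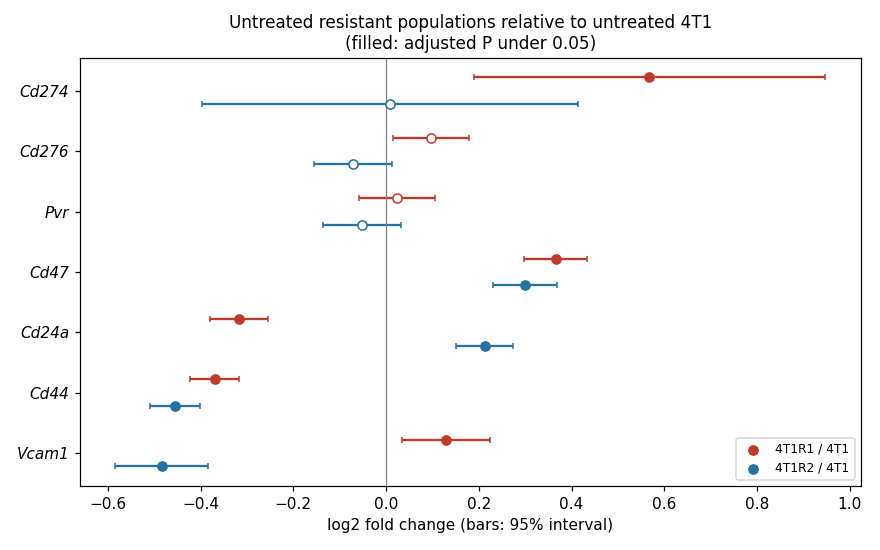
Log2 fold change of 7 members in untreated 4T1R1 (red) and 4T1R2 (blue) relative to untreated 4T1, with 95% intervals and filled points where adjusted P was under 0.05. Cd47 lies above 0 and Cd44 below 0 in both populations, and Cd24a lies on opposite sides, at -0.32 and 0.21. Icam1 is left out because 4T1 had 2 counts in all.

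**Figure D4:**
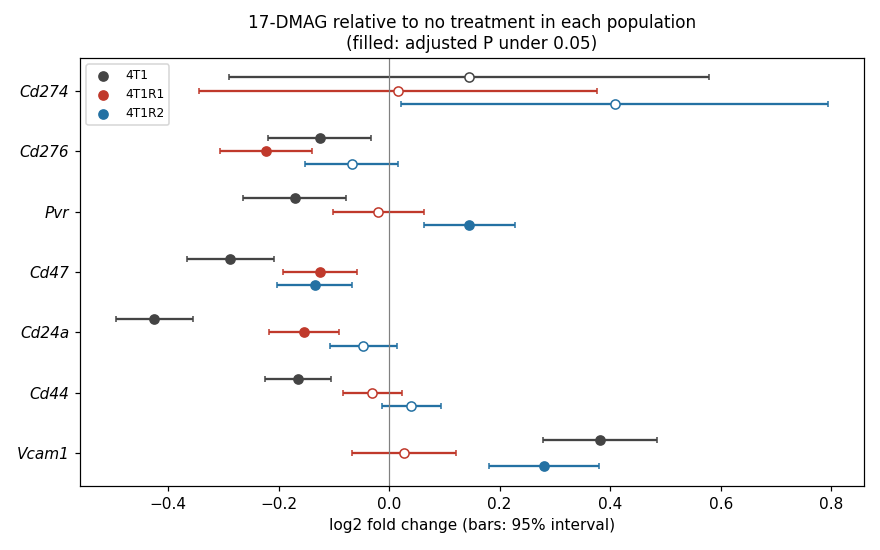
Log2 fold change of the same 7 members after 17-DMAG in 4T1 (grey), 4T1R1 (red) and 4T1R2 (blue), with 95% intervals and filled points where adjusted P was under 0.05. In 4T1 the points for Cd276, Pvr, Cd47, Cd24a and Cd44 lie below 0 and that for Vcam1 lies at 0.38.

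Proteins that make, cut, bind or stabilize the members' products were described through a list of 16 genes, all of them tested. In 4T1R1, 3 were higher and 10 lower than in 4T1 (median log2 fold change -0.21, against 0.0075 over all genes), and in 4T1R2 4 were higher and 10 lower (-0.17, against 0.0068). The shares over all genes were 25.2% higher and 27.5% lower in 4T1R1, and 25.6% and 26.9% in 4T1R2. Esrp1, a splicing regulator that promotes inclusion of the CD44 variant exons, stood at 389.4 ± 29.4 normalized counts in untreated 4T1, 101 ± 22.3 in 4T1R1 and 81.1 ± 7.7 in 4T1R2 (SD, n = 3), with log2 fold changes of -1.94 (SE 0.15) and -2.26 (SE 0.16). Has2, a synthase of the CD44 ligand hyaluronan, went from 4026 ± 164 normalized counts to 2004 ± 156 in 4T1R1 and 1745 ± 137 in 4T1R2, and Spp1, which encodes osteopontin, changed by -1.38 (SE 0.04) and -0.86 (SE 0.04). Mmp9, a metalloprotease that docks on CD44, was higher by 0.97 (SE 0.06) and 1.23 (SE 0.06). These calls had adjusted P of 3.94e-14 or lower (edgeR). Has1, another hyaluronan synthase, was higher, at 111.4 ± 20.3 normalized counts in 4T1R1 and 103.6 ± 22.2 in 4T1R2 against 75.2 ± 11.8 in 4T1 (SD, n = 3, adjusted P = 0.00858 and 0.0424). Cmtm6, which protects PD-L1 from degradation and is named here after its values were seen, was lower by log2 fold changes of -0.61 (SE 0.06) and -0.50 (SE 0.06).

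17-DMAG raised 2 of these 16 genes in 4T1 and lowered 6, raised 2 and lowered 5 in 4T1R1, and raised 1 and lowered 1 in 4T1R2. Over all genes, 18.4% rose and 18.0% fell in 4T1, 13.9% and 14.4% in 4T1R1, and 6.18% and 4.35% in 4T1R2. Has2 fell in all 3 populations, by a log2 fold change of -1.60 (SE 0.06) in 4T1, -0.59 (SE 0.06) in 4T1R1 and -0.19 (SE 0.06, adjusted P = 0.0203, edgeR) in 4T1R2. Treatment took it from 4026 ± 164 to 1326 ± 53 normalized counts in 4T1 (SD, n = 3 and 2), below the untreated level of either resistant population. Has1 rose in 4T1 by 0.63 (SE 0.20, adjusted P = 0.01). Cmtm4, a relative of Cmtm6, rose in all 3, by 0.42 (SE 0.04), 0.22 (SE 0.03) and 0.11 (SE 0.03). Qpctl, which modifies CD47 so that SIRPα can bind, fell in 4T1 (-0.36, SE 0.13, adjusted P = 0.0237).

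**Figure D5:**
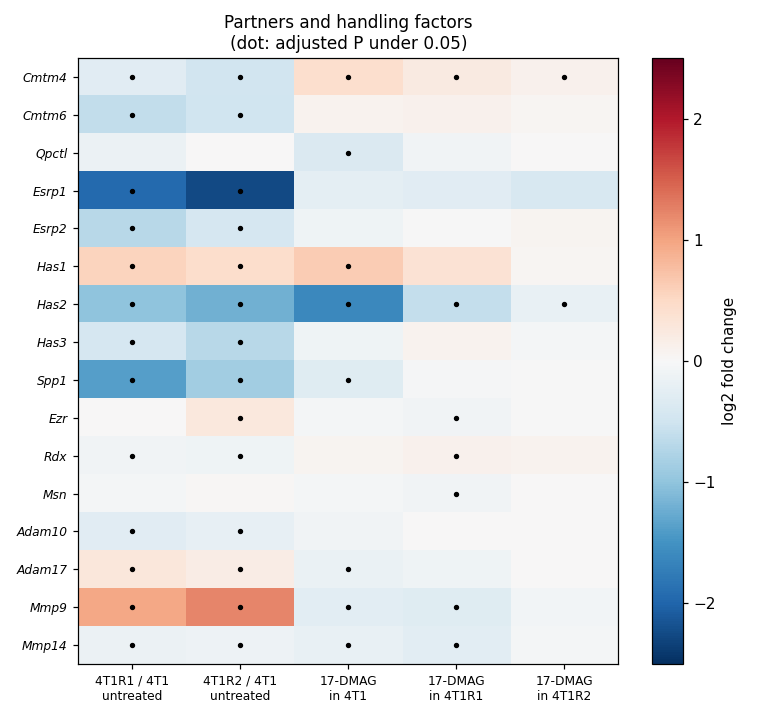
Log2 fold change of 16 genes for partners and handling factors of the members' products, as colors from blue (lower) to red (higher), in 5 comparisons, with a dot where adjusted P was under 0.05. Esrp1, Has2 and Spp1 are lower and Mmp9 is higher in both untreated resistant populations, and Has2 is lower after 17-DMAG in all 3 populations.

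Of 31 other ligands of immune receptors, 15 had enough counts to be tested. In untreated 4T1R1, 6 were higher and 3 lower, and in untreated 4T1R2, 6 were higher and 4 lower (median log2 fold changes 0.21 and -0.099). Of all genes tested, 25.2% were higher and 27.5% lower in 4T1R1, and 25.6% and 26.9% in 4T1R2. Lgals9, whose product galectin-9 binds TIM-3, rose from 673.4 ± 31.7 normalized counts in 4T1 to 1672 ± 92.8 in 4T1R1 and 1534 ± 66.3 in 4T1R2 (SD, n = 3), by log2 fold changes of 1.31 (SE 0.06) and 1.19 (SE 0.06). Lgals3, which encodes galectin-3, was higher by 0.84 (SE 0.03) and 1.04 (SE 0.03). Ulbp1, a ligand of the activating receptor NKG2D, was lower by -0.27 (SE 0.08, adjusted P = 0.0056, edgeR) and -1.03 (SE 0.09, adjusted P = 3.71e-13). The nectin genes Pvrl1, Pvrl2 and Pvrl3 (older symbols), whose products are relatives of CD155, fell after 17-DMAG in 4T1 by log2 fold changes of -0.42 (SE 0.06), -0.33 (SE 0.07) and -0.39 (SE 0.08), while Pvrl4, at no more than 4.68 normalized counts in any library, was not tested. Over all genes, 17-DMAG raised 18.4% and lowered 18.0% in 4T1, 13.9% and 14.4% in 4T1R1, and 6.18% and 4.35% in 4T1R2. It raised 2 and lowered 4 of these ligands in 4T1, lowered 4 in 4T1R1 and lowered 1 in 4T1R2. None of these ligands was raised in either resistant population. At an unadjusted P under 0.05 the number raised was 1 in 4T1R1 and 0 in 4T1R2, and DESeq2 called 0 in both.

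Of 22 other adhesion molecules, 20 were tested. In untreated 4T1R1 4 were higher and 6 lower than in 4T1, and in untreated 4T1R2 5 were higher and 8 lower (median log2 fold changes -0.051 and -0.14). The shares of all genes were 25.2% higher and 27.5% lower in 4T1R1, and 25.6% and 26.9% in 4T1R2. Selp, the gene of P-selectin, was higher in 4T1R1 by 0.97 (SE 0.12) and in 4T1R2 by 1.45 (SE 0.12), and its change after 17-DMAG was -1.16 (SE 0.17), -0.61 (SE 0.12) and -0.36 (SE 0.11, adjusted P = 0.024, edgeR) in 4T1, 4T1R1 and 4T1R2. Alcam, a ligand of CD6, was higher by 0.24 (SE 0.05) and 0.42 (SE 0.05), while Bcam was lower by -3.08 (SE 0.23) and -1.42 (SE 0.20). Epcam, an epithelial adhesion molecule, was lower in 4T1R1 (-1.01, SE 0.05) and showed a change of -0.10 in 4T1R2 (SE 0.05, adjusted P = 0.072). 17-DMAG raised none and lowered 6 of the 20 in 4T1, raised 1 and lowered 2 in 4T1R1, and raised none and lowered 3 in 4T1R2. Over all genes, 18.4% rose and 18.0% fell in 4T1, 13.9% and 14.4% in 4T1R1, and 6.18% and 4.35% in 4T1R2. Where none was raised by edgeR, 0 had an unadjusted P under 0.05 in that direction and DESeq2 called 0.

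Among 25 genes for factors known to control transcription of the members, all tested, 17 were higher and 3 lower in untreated 4T1R1, and 14 were higher and 2 lower in untreated 4T1R2. Their median log2 fold changes were 0.25 and 0.19. Beside these counts, 25.2% of all genes were higher and 27.5% lower in 4T1R1, and 25.6% and 26.9% in 4T1R2. Ifnar2, a chain of the type I interferon receptor, was higher by 1.12 (SE 0.06) and 1.00 (SE 0.06). Nfkbia, a target and inhibitor of NF-κB, was higher by 1.32 (SE 0.04) and 1.13 (SE 0.05). Irf1, a transcription factor that induces Cd274, changed by 0.83 (SE 0.06) in 4T1R1, and Stat2 by 0.94 (SE 0.07) in 4T1R2. Fos (-0.99, SE 0.14), the NF-κB kinase gene Ikbkb (-0.20, SE 0.05) and Jun (-0.18, SE 0.05) were lower in 4T1R1. Irf2 (-0.19, SE 0.06) and Jak2 (-0.12, SE 0.04) were lower in 4T1R2. Fos was higher in 4T1R2 than in 4T1R1 by 1.83 (SE 0.13). 17-DMAG raised 4 and lowered 14 of the 25 in 4T1, raised 1 and lowered 11 in 4T1R1, and raised none and lowered 6 in 4T1R2, where by edgeR 0 rose at an unadjusted P under 0.05 and by DESeq2 0 were called. The shares of all genes raised and lowered were 18.4% and 18.0% in 4T1, 13.9% and 14.4% in 4T1R1, and 6.18% and 4.35% in 4T1R2. Nfkbia responded by -2.11 (SE 0.07), -0.59 (SE 0.04) and -0.16 (SE 0.04), respectively. Fos fell by -4.28 (SE 0.24) in 4T1 and -0.86 (SE 0.12) in 4T1R2, while Myc rose by 0.50 (SE 0.04) in 4T1 and 0.22 (SE 0.03) in 4T1R1. At most the 3 largest called changes per direction were named, so a gene given for 1 population may also have changed in another. Among the members, only Cd47 was higher in both resistant populations and lower after 17-DMAG in all 3 populations with TMM scaling. Its fall in 4T1R1 lost the call with library totals alone. Icam1, also higher in both, was at or under 3 counts in 4T1 with and without 17-DMAG, so a fall could not be seen there. The changes of Icam1 in 4T1R1 and 4T1R2, -0.65 and -0.45, were not called.

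Across the 17 libraries the members followed different genes. By Pearson's r of log2 levels over genes whose mean reached 100 normalized counts, the genes most like Cd47 were Ripk2, Il6st and Lpin2 (r = 0.978, 0.978 and 0.977), and those most like Cd44 were E2f8, Mmp10 and Rtn4 (0.978, 0.976 and 0.976). Cd24a was most like Spcs2, Pgrmc2 and Olfm1 (0.985, 0.965 and 0.963), and Vcam1 was most like Prss23, Fat1 and Mmp11 (0.964, 0.962 and 0.962). For Icam1 these were Prx, Tnfrsf9 and Arrb2 (0.95, 0.89 and 0.888), and for Cd276 they were Slc35e4, Map3k11 and Tnks1bp1 (0.89, 0.864 and 0.863). The closest genes were less alike for Cd274, with Cyp2j6, Pus3 and Cwc25 (0.834, 0.765 and 0.76), and for Pvr, with Bnc1, Prpsap2 and Ppm1b (0.783, 0.782 and 0.777). Among the members themselves r ran from -0.88 between Vcam1 and Cd24a to 0.78 between Icam1 and Cd47. These values describe 17 libraries that share populations, treatments and scaling, and no P is given.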

How the data were processed

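Ribosome-depleted total RNA from 3 libraries in each of 6 groups was sequenced. The authors aligned the reads to mm10 with STAR, counted them per gene symbol with featureCounts (Subread 1.6.2 in the submitters' processing notes, beside bcl2fastq 2.20) and deposited the counts as whole numbers without normalization. Whether strand was used in counting is not given in the sources used here. Of the 9 members, 6 overlap an annotated gene on the opposite strand, and 0 overlap one that has counts of its own in the table.

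From these counts, 17 libraries entered edgeR 4.0.16 (R 4.3.3), since replicates 1 and 2 of treated 4T1 had a chi-square per gene of 1.099, against 2.042 to 2.219 in 17 other replicate pairs, and were averaged. This was planned from earlier results. Genes were kept by filterByExpr and scaled by TMM. A model of 6 group means was tested by quasi-likelihood, with Benjamini-Hochberg adjustment over 13507 genes and a threshold of 0.05. Normalized counts are counts at the mean TMM-scaled library size. RPKM values used the joined exon lengths of GENCODE vM21 on GRCm38, and promoter windows came from RefSeq. Intervals are at 95%. No library column was left unassigned.

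The study calls its libraries biological triplicates, and P measures the spread between them. The code was tested on simulated data. The 25 alternatives were RLE scaling, library totals alone, no filter, at least 10 counts in every library, DESeq2 1.42.0, only the groups compared, 18 separate libraries without or with a replicate block, and 17 fits that each left out 1 library.

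The members and gene lists were chosen with earlier results of these data known. From each list, at most the 3 largest changes per direction were named among called genes with 100 or more mean normalized counts in the higher group. Genes named for their likeness to a member were the 3 with the highest Pearson's r. Other genes named after their values were seen are marked so in the text. Plots used Python 3.11.15 and matplotlib 3.10.9.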

Additional observations from a re-analysis of the deposited data

Results flagged for a closer look

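The test of a difference in response to 17-DMAG between a resistant population and 4T1 (an interaction in edgeR's quasi-likelihood fit, adjusted over 13507 genes, n = 3 and 3 against n = 3 untreated and 2 treated) called 8 results for 5 members. Of all genes tested, 9.21% were called upward and 9.04% downward in 4T1R1, and 9.68% and 8.13% in 4T1R2. For Vcam1, which rose in 4T1, the log2 difference in 4T1R1 was -0.35. Cd47 fell less in both resistant populations, by 0.16 in 4T1R1 and 0.15 in 4T1R2. For Cd44 the difference was 0.13 in 4T1R1 and 0.20 in 4T1R2. For Pvr it was 0.32 in 4T1R2, where the gene rose while it fell in 4T1. For Cd24a it was 0.27 in 4T1R1 and 0.38 in 4T1R2. Both Cd47 calls and the Cd44 call in 4T1R1 were lost when certain single libraries were left out. All of these comparisons share the 4T1 libraries. Groups of 3 libraries or fewer were not tested for outlying libraries.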

How the results depend on the processing

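Of 61 log2 results, 36 were called, and 23 of these kept their call under all 25 alternatives, as did 2 for Icam1 under the 24 and 23 that gave a value, while 0 changed direction. Of the 25 results without a call, 21 gained none under those that gave one. With library totals alone, values near zero and without a call changed sign: Cd44 after 17-DMAG was 0.0029 in 4T1R1 and -0.0061 in 4T1R2, Pvr after 17-DMAG was 0.014 in 4T1R1, and the response difference of 4T1R1 was 0.018 for Cd274 and 0.052 for Cd276. This scaling shifted the median of all genes by -0.11 for 17-DMAG in 4T1 and by 0.15 and 0.068 for the response differences of 4T1R1 and 4T1R2. Leaving out 1 library gave ranges that crossed zero for Pvr in untreated 4T1R1 (-0.0012 to 0.052), Cd274 in untreated 4T1R2 (-0.076 to 0.12), Cd274 and Pvr after 17-DMAG in 4T1R1 (-0.11 to 0.24 and -0.047 to 0.0078) and the Cd274 response difference of 4T1R1 (-0.25 to 0.095). The number of members called in that response difference ran from 2 to 4, with 2 without replicate 3 of treated 4T1. The cause was not tested. A minimum of 10 counts in every library removed Icam1 from the tests. Icam1 passed the main filter only through the resistant populations, so its calls with that filter are not independent of it. Replicate numbers did not pair the libraries: over 45 pairs r ran from -0.0447 to 0.0526, 0 were over 0.1, and 5 of 18 libraries were most like one of their own number. With the replicate block, Cd276 in untreated 4T1R1 was called (0.097, adjusted P = 0.0426), so that 7 members were called there in place of 6, and no other count of called members changed. Low counts limit Icam1, Cd80 and, in part, Cd274.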

Other observations

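Counter-receptors of the members, which belong to leukocytes in the main, were read in the same libraries. Of 12, 6 were tested, and 2 were higher and 3 lower in untreated 4T1R1 than in 4T1, and 1 higher and 4 lower in untreated 4T1R2 (edgeR, adjusted P under 0.05). All genes tested had shares of 25.2% higher and 27.5% lower in 4T1R1, and 25.6% and 26.9% in 4T1R2. 17-DMAG raised 2 and lowered 0 in each population, where 0 were lower at an unadjusted P under 0.05 and 0 by DESeq2. The shares of all genes raised and lowered were 18.4% and 18.0% in 4T1, 13.9% and 14.4% in 4T1R1, and 6.18% and 4.35% in 4T1R2. Sirpa, the receptor for CD47, was at 319.2 ± 30.6 normalized counts in untreated 4T1, 212.1 ± 10.8 in 4T1R1 and 32.6 ± 10.8 in 4T1R2 (SD, n = 3), with log2 fold changes of -0.59 and -3.33. Itgb1, the β chain of the VCAM-1 receptor VLA-4, was lower by -0.78 and -0.73 and rose after 17-DMAG by 0.10 in 4T1, 0.12 in 4T1R1 and 0.10 in 4T1R2. Itga4, which encodes the α chain of VLA-4, was at 0 counts in every library, so the Itgb1 values do not describe that receptor. Itgb2, the β chain of the ICAM-1 receptor LFA-1, was higher by 0.74 and 0.66. Reads were also assigned to Tigit, a receptor for CD155 known from lymphocytes, at 2491 ± 35.6 normalized counts in untreated 4T1. It was lower in the resistant populations by -0.48 and -0.40 and rose after 17-DMAG by 0.48, 0.35 and 0.34, respectively.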
